A study of Mus musculus with 8 samples.

Results

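The transcripts of 9 genes were followed here in primary cultured mouse microglia: Igf1, Igf2, Bdnf, Hgf, Vegfa, Pdgfa, Gas6, Tgfb1 and Grn, which encode secreted factors that act on the growth, survival or differentiation of neighbouring cells. They were chosen by symbol as the rows of the deposited count table with these GENCODE mouse names, which gave 9 of 55385 genes, and all 9 were found. Microglia were grown from the neocortex and hippocampus of newborn wild-type mice, with cells of several brains pooled in a flask in medium with heat-inactivated fetal bovine serum. They were shaken off after 12 days, replated for 3 days and treated at DIV15 (day 15 in vitro). In the IgG group, mouse IgG was added to 10 µg/ml and left for 24 h. The control group is called untreated in the labels and PBS-treated in the study's methods. Each group had 4 libraries, and the labels give the control and the IgG library that share a replicate number 1 common date, so the comparison was made within 4 pairs. The labels do not say which step the date belongs to. The question for these genes was whether their transcripts differed between IgG-treated and control microglia.

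Microglia support neurons and glia in the developing brain partly by releasing such factors. Igf1 and Igf2 encode insulin-like growth factors, which act through tyrosine kinase receptors of the insulin receptor family and favour the survival and growth of neurons and oligodendrocytes. Bdnf, Hgf, Vegfa and Pdgfa encode ligands of the receptor tyrosine kinases TrkB, Met, the VEGF receptors and the PDGF receptors. Gas6 encodes the ligand that bridges phosphatidylserine on dying cells to the TAM receptors of phagocytes, Tgfb1 encodes the latent cytokine on which microglial identity depends, and Grn encodes progranulin, a secreted and lysosomal glycoprotein.

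Of the 9 genes, 8 could be tested, and none of these 8 passed the correction over all genes tested when IgG-treated and control microglia were compared. The edgeR quasi-likelihood test with the replicate number as a block called 0 of 8 tested members at an adjusted p-value under 0.05, whereas 0.393% of all 17537 tested genes were called. Bdnf had too few counts to be tested. At an unadjusted p-value under 0.05, 2 of the 8 stood out, Grn (higher) and Vegfa (lower), in a table where 10.2% of genes did so (6.35% higher and 3.85% lower). Without the block, 1 member did so, Grn at an unadjusted edgeR p of 0.0108, and Vegfa was at 0.154. DESeq2, limma-voom and the likelihood ratio test, each with the block, also called 0 members, with Grn at an adjusted p of 0.0628, 0.144 and 0.0631. With no filter on low counts, 1 member was called, Grn at 0.0457. No member met the criterion of the study, an unadjusted p-value under 0.01 with an absolute log2 fold change over 0.5, which 1.82% of the tested genes met. The median log2 fold change was 0.022 over the 8 members and -0.0051 over all tested genes. In bulk libraries, fewer cells of a type and less RNA per cell cannot be told apart.

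The libraries held 21287816 to 23703216 counts. IgG replicates 1 and 3 stood apart from the other libraries, with 4.85% and 5.59% of their counts on mitochondrial genes against 1.97% to 2.41% in the other 6. The unit of level here is CPM, in which library sizes were adjusted by the TMM method. The labelled cell type was checked against 16 microglial markers, which were all tested and summed to 8854 to 10001 CPM in control libraries and 9937 to 10864 CPM with IgG. Of these 16, 7 were higher with IgG at an unadjusted p-value under 0.05, and Aif1 and Fcrls passed the adjustment. Transcripts listed as markers of other cells were counted as well, and which cells made them was not tested. The 10 oligodendrocyte lineage markers summed to 1336 to 2009 CPM in control libraries and 1175 to 1899 CPM with IgG, and the 10 astrocyte markers to 174 to 199 and 151 to 193 CPM. The 10 neuronal markers summed to 47.2 to 74.8 and 43.9 to 63.5 CPM. The list of fibroblasts and meninges summed to 679 to 1288 and 597 to 870 CPM, nearly all of it Fn1. The list of endothelium and mural cells summed to 131 to 171 and 126 to 141 CPM, nearly all of it Flt1. Cldn5 had 0 counts in all 8 libraries. The 10 markers of border-associated macrophages summed to 1182 to 1510 CPM in control libraries and 1359 to 2174 CPM with IgG. Stab1 was the most abundant, at 759 ± 49.7 and 907 ± 135 CPM (SD, n = 4 each). For 2 of the 10 the counts were too few to test. Of the 8 tested, 4 were higher with IgG at an unadjusted edgeR p under 0.05, where 6.35% of all tested genes were. Ms4a7 passed the adjustment. At the unadjusted threshold, 1 marker was lower in each of the oligodendrocyte, neuronal and fibroblast lists. In the endothelial and mural list 1 was higher, and 0 astrocyte markers passed it. The part of any such other cells in the levels of the trophic factors was not tested.

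The sequence just upstream of the 2 genes with an unadjusted p-value under 0.05 is shown, up to the first base of the gene in the annotation. Both come from the RefSeq promoter windows of GRCm38.p6, which reach from 250 bases before the start of a transcript to 50 bases after it, and are written 5′ to 3′ on the strand of the gene. The Grn stretch (chr11:102430257-102430314, plus strand, 58 bases) has in capitals TCACATGA, the letters searched as the M-box, the element that factors of the MITF and TFE family are known to bind.
Grn: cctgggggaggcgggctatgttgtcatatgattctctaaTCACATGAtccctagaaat
The Vegfa stretch (chr17:46032370-46032627, minus strand, 258 bases) has in capitals 2 copies of GGGCGG, the GC box, and 1 match on the other strand to the interferon-stimulated response element (ISRE), searched as GAAA, any 2 bases and GAAA.
Vegfa: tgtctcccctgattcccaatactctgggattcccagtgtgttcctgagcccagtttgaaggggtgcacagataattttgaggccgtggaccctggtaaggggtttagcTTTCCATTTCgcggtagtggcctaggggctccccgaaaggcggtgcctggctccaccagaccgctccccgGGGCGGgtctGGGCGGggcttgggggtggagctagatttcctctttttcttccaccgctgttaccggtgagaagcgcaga
In all, 6 motifs were searched on both strands in 32851 promoter windows, of which 21 belong to the 9 members, and the shares are of windows in both cases. TCACATGA was in 0.986% of all windows and in 1 of the 21, that of Grn. GGGCGG was in 35.7% of all windows and in 11 of the 21, and the ISRE in 3.44% and in 3 (1 each of Bdnf, Igf2 and Vegfa). TTCNNNGAA, the GAS element, was in 8.3% and in 1 (Bdnf), and ACGTG, the hypoxia response element, in 19.6% and in 4 (Bdnf, Igf2 and Vegfa). CACGTG, the E-box, which contains ACGTG, was in 7.15% and in 0 of the 21. Windows of 1 gene can overlap. The stretches and motifs were chosen after the values were seen, and a match or its absence describes the letters only.

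Levels were compared between genes per length, as CPM per kilobase of annotated exon. In control microglia Grn was the highest member at 434 ± 35.9 CPM per kb (SD, n = 4), above 99.4% of the genes tested. Gas6 followed at 155 ± 8.65 CPM per kb, then Igf1 at 66.3 ± 3.37 and Tgfb1 at 50.9 ± 1.68. These 4 transcripts were all above 93.9% or more of the tested genes on this scale. A second tier held Pdgfa at 9.61 ± 0.777, Hgf at 4.24 ± 0.144 and Vegfa at 2.04 ± 0.210 CPM per kb. Igf2 was at 0.230 ± 0.0746 and Bdnf at 0.0205 ± 0.00914 CPM per kb. Over all 8 libraries, Igf1 and Tgfb1 were the only neighbours in this order whose ranges overlapped. Every other neighbouring pair was separated in all 8 libraries, the smallest factor between their control means being 2.08 (Hgf over Vegfa). No exact factor is given for Igf2 over Bdnf. Bdnf had 5, 2, 2 and 3 counts in the control libraries, and the reads of Igf2 are shared with the overlapping gene Gm49394. The order was the same in the means of the IgG libraries.

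**Figure D1:**
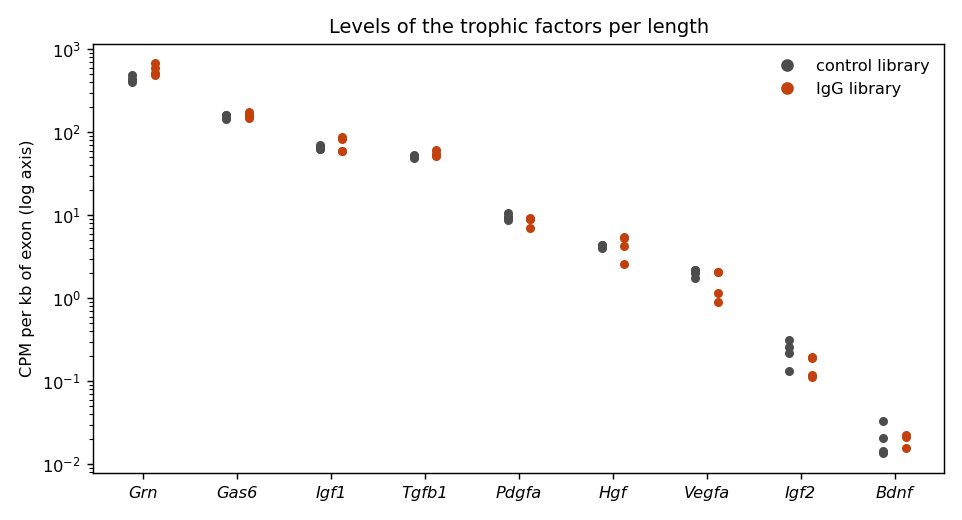
Level of each member in CPM per kilobase of exon on a log axis, with 1 point per library (gray, 4 control libraries; orange, 4 IgG libraries). Grn lies at the top and Bdnf at the bottom, and the IgG library in which Bdnf had 0 counts is not drawn.

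Grn, which encodes progranulin, the precursor of the granulin peptides, is on chr11:102430315-102437048 (mm10, GENCODE M21, plus strand). It had 40335, 32323, 36372 and 32002 counts in control replicates 1 to 4 and 50489, 39253, 42495 and 39229 counts in IgG replicates 1 to 4. These correspond to 1673, 1458, 1523 and 1378 CPM in control and to 2334, 1707, 2086 and 1786 CPM with IgG. The lowest IgG library was above the highest control library, and Grn was the only one of the 8 tested members whose groups did not overlap, as was the case for 4.17% of all tested genes. The group means were 1508 ± 125 and 1978 ± 288 CPM (SD, n = 4 each). The log2 fold change was 0.38 (SE 0.098, 95% interval 0.16 to 0.61), with an unadjusted edgeR p of 0.00426 and an adjusted p of 0.245. The 4 pairs differed by 0.48, 0.23, 0.45 and 0.37 on the log2 scale, a range of 0.25 between pairs. With trends on exon length and GC content removed from each pair they were 0.64, 0.23, 0.61 and 0.22. The differences were larger in pairs 1 and 3, whose IgG libraries had the high mitochondrial share, whose part in the result was not tested. Without those pairs the log2 fold change was 0.30. The call of Grn depended on the filter on low counts. When every gene with at least 1 count was kept, its adjusted p was 0.0457, against a range from there to 1.00 over all the alternatives tried.

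Vegfa, which encodes the vascular endothelial growth factor that acts on endothelial cells and also on neurons, is on chr17:46016993-46032369 (minus strand). It had 206, 209, 180 and 219 counts in control and 84, 205, 100 and 194 counts in IgG replicates 1 to 4. In CPM these were 8.54, 9.43, 7.54 and 9.43 against 3.88, 8.91, 4.91 and 8.83. IgG replicates 1 and 3 were below all control libraries, whereas IgG replicates 2 and 4 were within the control range. The pair differences on the log2 scale were -1.12, -0.080, -0.61 and -0.094. The log2 fold change was -0.46 (SE 0.19, 95% interval -0.91 to -0.016), with an unadjusted edgeR p of 0.0439 and an adjusted p of 0.479. Without the block the unadjusted edgeR p was 0.154. The libraries with the low values were those with the high mitochondrial share, and the part of that share in the difference was not tested. Without pair 1 the log2 fold change was -0.25, and without pairs 1 and 3 it was -0.087. With the trends on length and GC content removed, the pairs still differed by -1.01, -0.081, -0.51 and -0.19.

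**Figure D2:**
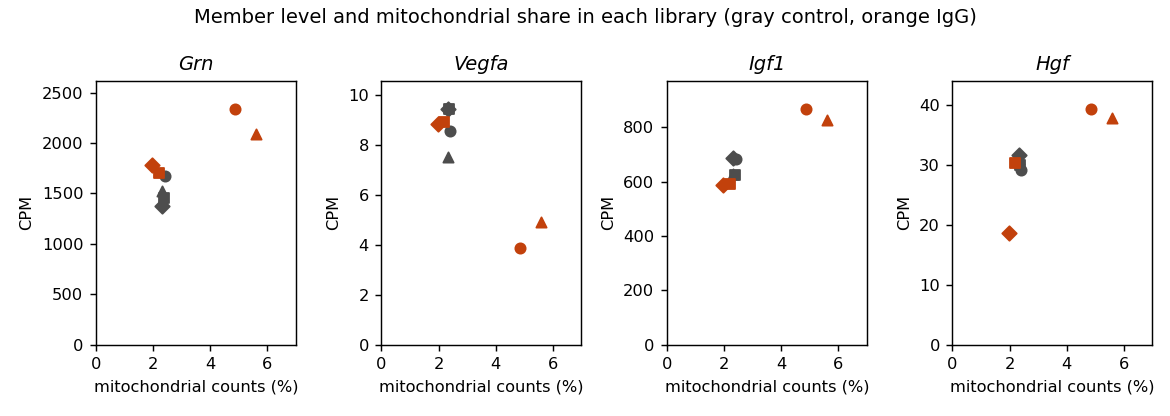
Level of Grn, Vegfa, Igf1 and Hgf in CPM (vertical axes, from 0) against the percent of counts on mitochondrial genes in the same library (horizontal axes); gray is control, orange is IgG, and circle, square, triangle and diamond are replicates 1 to 4. IgG replicates 1 and 3 lie to the right at 4.85% and 5.59%, with the 2 lowest values of Vegfa and the 2 highest of Grn, Igf1 and Hgf.

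Igf1, the main microglial insulin-like growth factor, is on chr10:87858265-87937042 (plus strand). Its counts were 16484, 13873, 15022 and 15938 in control and 18729, 13582, 16823 and 12905 in IgG replicates 1 to 4. In CPM it was at 684, 626, 629 and 686 in control and 866, 591, 826 and 587 with IgG. IgG replicates 1 and 3 were thus above all control libraries and IgG replicates 2 and 4 below all of them. The coefficient of variation was 5.08% among control and 20.8% among IgG libraries. The log2 fold change was 0.11 (SE 0.13, 95% interval -0.19 to 0.40), with an adjusted edgeR p of 0.765. The Igf1 exons have a GC content of 43.6%, and the pair differences of 0.34, -0.083, 0.39 and -0.22 became 0.037, -0.088, 0.090 and 0.097 after the trends on length and GC were removed. Pairs 1 and 3 moved toward 0, pair 2 hardly moved and pair 4 changed sign. Without pairs 1 and 3 its log2 fold change was -0.15, and when each pair was left out in turn it ranged from 0.012 (pair 3) to 0.20 (pair 4).

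Igf2, the fetal form of insulin-like growth factor, is on chr7:142650766-142666816 (minus strand) and was low. It had 43, 17, 35 and 29 counts in control and 24, 25, 13 and 15 counts in IgG libraries. The corresponding CPM values were 1.78, 0.767, 1.47 and 1.25 against 1.11, 1.09, 0.638 and 0.683. Igf2 was lower with IgG in 3 pairs and higher in pair 2. Its log2 fold change was -0.56 (SE 0.32, 95% interval -1.31 to 0.18), with an adjusted edgeR p of 0.572. It was -0.90 without pair 2, -0.37 without pair 3 and -0.18 in pairs 2 and 4 alone. The ratio of summed, depth-scaled counts was 0.667 (exact 95% interval 0.495 to 0.893, counting error only), so the interval across libraries was wider than counting error alone gives. The annotated gene Gm49394 shares 3596 exonic bases, 62.8% of the Igf2 exons, on the same strand. Gm49394 had the same count as Igf2 in 7 of 8 libraries, so the reads cannot be assigned to one of them.

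Hgf, the hepatocyte growth factor, is on chr5:16553495-16620152 (plus strand). It had 706, 667, 740 and 735 counts in control and 851, 698, 772 and 410 counts in IgG libraries. The control values of 29.3, 30.1, 31.0 and 31.7 CPM were close together, whereas the IgG values of 39.3, 30.3, 37.9 and 18.7 CPM spread to both sides of them. The pairs differed by 0.43, 0.013, 0.29 and -0.76 on the log2 scale. Across them the log2 fold change was -0.00028 (95% interval -0.41 to 0.41), with an adjusted edgeR p of 0.999. Hgf exons have a GC content of 40.6%, and with the trends removed the pair differences were 0.087, -0.0079, -0.073 and -0.47. Without pair 4, which holds the lowest IgG value, the log2 fold change was 0.23, and in pairs 2 and 4 alone it was -0.37.

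Pdgfa, the ligand of PDGF receptor alpha on oligodendrocyte precursors, is on chr5:138976014-138997370 (minus strand). It had 663, 738, 699 and 693 counts in control and 478, 639, 573 and 632 counts in IgG libraries. The CPM values were 27.5, 33.3, 29.3 and 29.8 in control and 22.1, 27.8, 28.1 and 28.8 in IgG libraries. Pdgfa was lower with IgG in all 4 pairs, as was Vegfa, in a table where 8.47% of tested genes were. The groups still overlapped, and the log2 fold change of -0.17 (SE 0.098, 95% interval -0.40 to 0.053) had an adjusted edgeR p of 0.568. With the trends removed, pair 3 turned to 0.18 and the other pairs were -0.083, -0.26 and -0.24. The antisense gene 6330403L08Rik covers 26.1% of the Pdgfa exons, and the use of strand in counting is not given in the sources used here.

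Gas6, which encodes the vitamin K-dependent ligand of Axl, Mertk and Tyro3, is on chr8:13465374-13494490 (minus strand). Its 4 pair differences spanned 0.19 on the log2 scale, the smallest span of the 8 tested members. It had 9985, 8088, 9754 and 9170 counts in control and 8970, 8615, 8163 and 9719 counts in IgG libraries. The values were 414, 365, 408 and 395 CPM against 415, 375, 401 and 442 CPM. With IgG the log2 fold change of Gas6 was 0.044 (SE 0.087, 95% interval -0.16 to 0.24), with an adjusted edgeR p of 0.867, and it turned to -0.012 without pair 4 and to -0.056 with scaling by total counts alone. That scaling moved the median of all tested genes to -0.11, so that Gas6 was above that median under either scaling. With the trends removed, the log2 fold change of Gas6 was 0.12 (adjusted edgeR p 0.514).

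Tgfb1, the cytokine TGF-beta 1, is on chr7:25687002-25705077 (plus strand). It had 6449, 5513, 6174 and 5832 counts in control and 5916, 6019, 5387 and 6733 counts in IgG libraries. The values were 267, 249, 259 and 251 CPM in control and 274, 262, 264 and 306 CPM with IgG. Tgfb1 and Grn were the 2 members higher with IgG in all 4 pairs, which 10.4% of tested genes were. For Tgfb1 the pairs differed by 0.032, 0.074, 0.033 and 0.29, and the groups overlapped. With the trends on length and GC content removed, the pairs differed by 0.16, 0.076, 0.15 and 0.22. For Tgfb1 the estimate was a log2 fold change of 0.11 (SE 0.090, 95% interval -0.10 to 0.31), with an adjusted edgeR p of 0.673. It was 0.030 without pair 4, 0.0062 with scaling by total counts alone and 0.15 with the trends removed (adjusted edgeR p 0.346).

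Bdnf, the neurotrophin that signals through TrkB, is on chr2:109674700-109727007 (plus strand) and was barely detected. It had 5, 2, 2 and 3 counts in control and 3, 3, 2 and 0 counts in IgG libraries, 20 counts in all. The 0 counts of IgG replicate 4 allow a level of up to 3 counts, which is 0.136 CPM in that library. The ratio of summed, depth-scaled counts, IgG over control, was 0.716, with an exact 95% interval of 0.254 to 1.90 that covers counting error only.

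**Figure D3:**
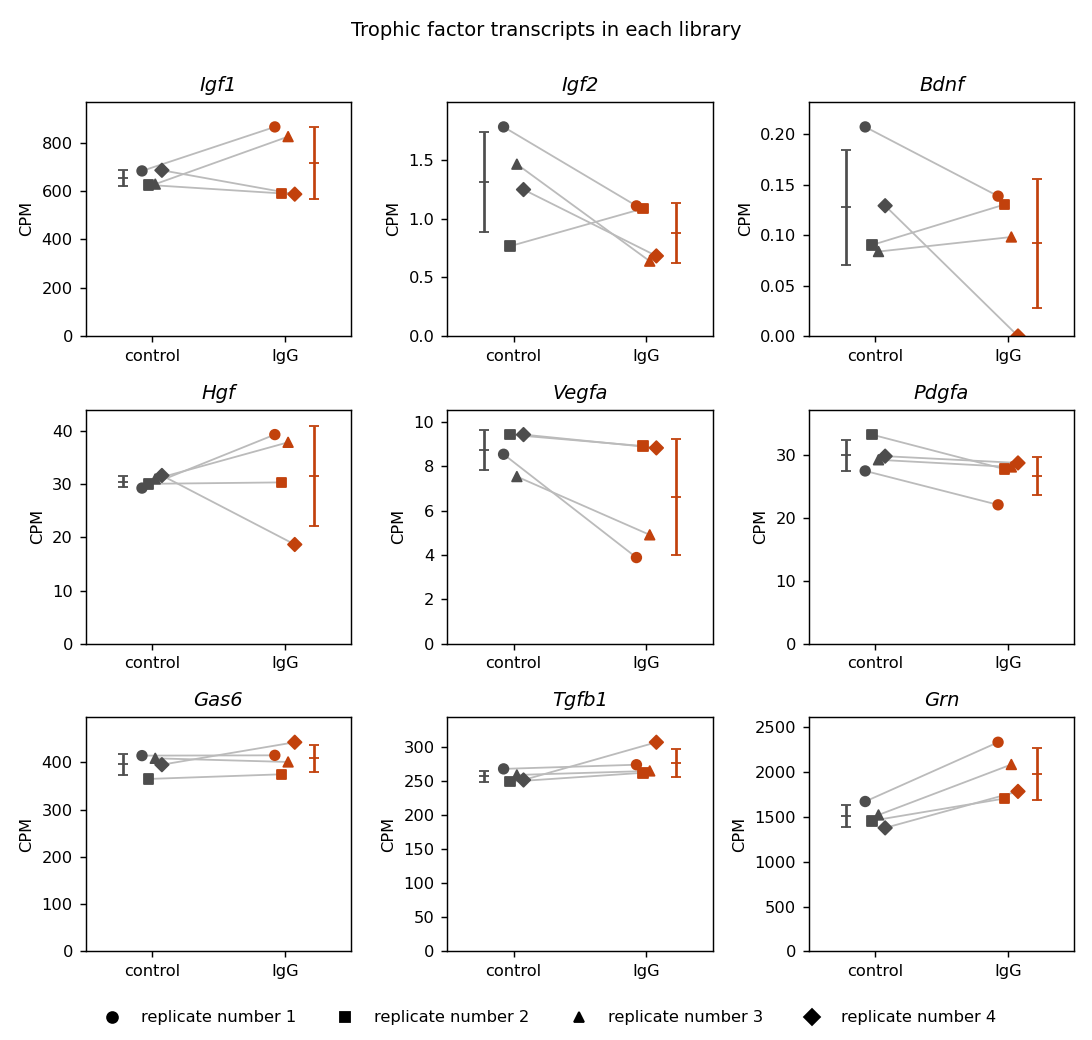
CPM of each member in the 4 control (gray) and 4 IgG (orange) libraries, with vertical axes from 0, gray lines joining the libraries of 1 replicate number, and bars at the side giving mean and SD (n = 4). Grn is the one tested member with no overlap between groups, and the IgG values of Igf1, Hgf and Vegfa spread more widely than their controls.

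For Igf1, Hgf and Vegfa the IgG libraries were more widely spread than the control libraries. The wider spread was not limited to these members. Over all genes compared, the chi-square per degree of freedom, where 1 is sampling noise, was at most 17.6 between 2 control libraries. Between 2 IgG libraries it was 26.9 to 121, except for replicates 1 and 3, at 6.59. The share of genes with a wider spread among IgG libraries was not counted. The coefficient of variation of Hgf was 3.40% among control and 30.0% among IgG libraries, and that of Vegfa was 10.3% and 39.5%. The spread was small in both groups for Gas6 (5.57% and 6.93%), Tgfb1 (3.30% and 7.45%) and Pdgfa (8.08% and 11.6%), it was 8.28% and 14.6% for Grn, and for Igf2 it was wider in control, at 32.4% against 28.8%. The level of no member differed among the 4 pairs in the same fit, the smallest adjusted p of the edgeR F-test being 0.579 for Vegfa, while 0.975% of tested genes were called by that test.

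**Figure D4:**
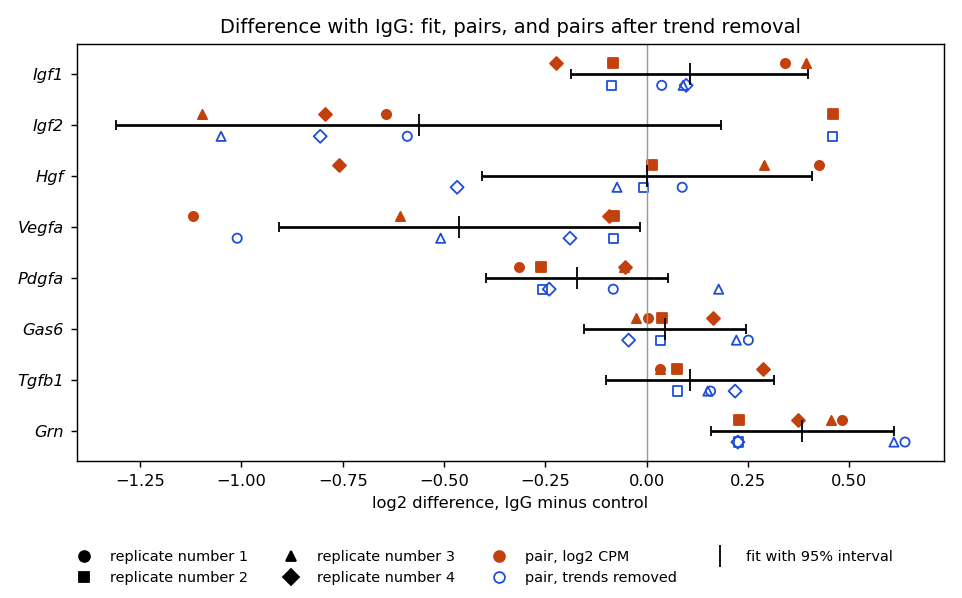
Log2 difference, IgG minus control, for the 8 tested members: black bars give the edgeR estimate with its 95% interval, filled orange symbols the 4 pairs, and open blue symbols the pairs after trends on exon length and GC content were removed. The intervals of Grn and Vegfa leave out 0, and the pairs of Igf1 lie between -0.088 and 0.097 after the removal.

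The genes most like each member over the 8 libraries were found by the root mean square difference of log2 CPM, each gene centred on its own mean. For Grn these were Clec12a (0.044), Shisa5 (0.058) and Gm13835 (0.059), where Grn itself varied by a root mean square of 0.24. For Vegfa they were 2700081O15Rik (0.066), Arhgef40 (0.083) and Klhdc8b (0.087), and for Pdgfa they were Pdcd4 (0.057), Stk11ip (0.065) and Cyp51 (0.065). The patterns nearest to Igf1 were those of Simc1 (0.040), Ggta1 (0.044) and Slc39a6 (0.046). Those nearest to Hgf were Huwe1 (0.041), Ankrd12 (0.044) and Gm15283 (0.054). Gas6 was nearest to Dhx30 (0.028), Ctdnep1 (0.030) and Kdelc1 (0.034), and Tgfb1 to Zbtb9 (0.026), Bcap31 (0.028) and Arhgdia (0.030). Igf2 was nearest to Gm49394 (0.027), with which it shares reads, then to Gm44574 (0.23) and Ak8 (0.23). Among the members themselves, Gas6 and Tgfb1 had the smallest difference, at 0.051. Both varied little, by a root mean square of 0.082 (Gas6) and 0.088 (Tgfb1), and the measure is small for any 2 genes that vary little.

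Receptors through which the factors act all had enough counts for the test, with as few as 6 in a library. By edgeR 0 of 23 were called (unadjusted p under 0.05: 2 higher, 0 lower), with a median log2 fold change of 0.018. Pdgfra is also in the fibroblast list above, and Flt1 and Kdr are in that of endothelium and mural cells. Which cells the receptor RNA came from was not tested. For the insulin-like growth factors, the signalling receptor Igf1r averaged 37.7 ± 1.47 CPM in control and 32.9 ± 4.64 CPM with IgG (SD, n = 4 each). The clearance receptor Igf2r was at 164 ± 52.0 and 175 ± 12.1 CPM. The Bdnf receptor Ntrk2 was at 22.1 ± 6.25 and 19.7 ± 3.35 CPM, and the Hgf receptor Met at 4.56 ± 0.391 and 5.18 ± 1.52 CPM. Among the receptors of Vegfa, Flt1 was at 139 ± 20.5 and 122 ± 3.77 CPM, Kdr at 7.44 ± 1.23 and 8.02 ± 3.06 CPM, and the co-receptor Nrp1 at 288 ± 6.20 and 292 ± 72.8 CPM. The Pdgfa receptor Pdgfra was at 8.82 ± 4.75 and 7.49 ± 2.60 CPM. The TAM receptors that bind Gas6 were at 251 ± 36.1 and 278 ± 59.0 CPM for Axl, 125 ± 7.61 and 132 ± 29.9 CPM for Mertk, and 12.8 ± 3.73 and 11.1 ± 3.38 CPM for Tyro3. Tgfbr1 was at 341 ± 10.0 and 344 ± 72.0 CPM, Tgfbr2 at 278 ± 22.7 and 321 ± 80.9 CPM, and Sort1, which takes up progranulin, at 159 ± 20.4 and 137 ± 4.78 CPM. In each of these 14 receptors the ranges of the groups overlapped. The highest of the 23 was Nrp2, at 547 ± 15.6 and 559 ± 87.3 CPM. The largest log2 fold change in the list was that of Eng, a co-receptor for TGF-beta, at 0.43 with an adjusted p of 0.277.

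Tgfbi was the only gene called among 122 tested genes of the 7 partner lists, a share of 0.820% where 0.393% of all tested genes were called. Tgfbi encodes an extracellular matrix protein named for its induction by TGF-beta. It was at 93.1, 81.8, 114 and 83.4 CPM in control and at 166, 120, 196 and 121 CPM in IgG replicates 1 to 4. All 4 IgG libraries were above all control libraries, and the pairs rose by 0.83, 0.55, 0.78 and 0.54 on the log2 scale. The larger rises were in pairs 1 and 3, whose IgG libraries had the high mitochondrial share. The log2 fold change was 0.68 (SE 0.094, 95% interval 0.46 to 0.89), with an adjusted edgeR p of 0.0329. Without the block its adjusted p was 0.643, and the range over the alternatives was 2.72e-06 to 0.643. Scaling by total counts alone ended the call, at 0.0536 with a log2 fold change of 0.58. Leaving out pair 1, 2 or 3 ended it too, at 0.170, 0.224 and 0.169. The log2 fold change stayed of similar size there, at 0.62, 0.72 and 0.64, and was 0.70 without the block. In pairs 2 and 4 alone it was 0.55 with an adjusted p of 0.0164. DESeq2 with the block called Igfbp4 as well, the likelihood ratio test called Igfbp4 and Mmp14 as well, and limma-voom called Tgfbi alone.

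The other TGF-beta genes gave no call, and the median log2 fold change of the 17 tested genes of signal and targets was 0.034. Id2, the most abundant of the list, was at 290 ± 12.4 and 305 ± 36.1 CPM. Genes of latency, activation and processing had 22 of 29 members tested and 0 called (unadjusted p under 0.05: 2 higher, 1 lower), with a median of -0.054. Among them Plau, the urokinase that can activate Hgf, was the most abundant at 696 ± 44.7 and 735 ± 118 CPM. Lrrc32, which anchors latent TGF-beta, had the largest difference at -0.59 (adjusted p 0.363), from 4.15 ± 0.583 to 2.75 ± 0.398 CPM.

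Binding proteins and partners of the insulin-like growth factors had 11 of 17 genes tested and 0 called (unadjusted p under 0.05: 1 higher, 1 lower), with a median of -0.076. Igfbp5 was the most abundant at 167 ± 28.1 and 176 ± 48.7 CPM. Igfbp2 had the largest difference, at -0.53 (adjusted p 0.406). Igfbp4, a binding protein that restrains Igf1, was chosen after its values were seen. It was at 133, 128, 132 and 103 CPM in control and 173, 179, 179 and 166 CPM with IgG, with no overlap and a log2 fold change of 0.49 (SE 0.091). Its adjusted edgeR p was 0.0762, and it passed the threshold under DESeq2 with the block at 0.00608, in a range from 0.00175 to 0.492 over the alternatives.

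The progranulin partners had 11 of 11 genes tested and 0 called (unadjusted p under 0.05: 1 higher, 0 lower), with a median of 0.070. Ctsd, a lysosomal protease that cleaves progranulin, averaged 18900 ± 839 CPM in control and 19621 ± 2859 CPM with IgG. Hypoxia genes that share regulation with Vegfa had 16 of 16 tested and 0 called (unadjusted p under 0.05: 0 higher, 1 lower), with a median of 0.0064. Ldha was the most abundant at 395 ± 16.7 and 443 ± 41.9 CPM, and Ankrd37 had the largest difference at -0.65 (adjusted p 0.475).

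Other trophic ligands had 24 of 43 genes tested and 0 called (unadjusted p under 0.05: 0 higher, 2 lower), with a median of -0.079. The most abundant was Apoe, the lipid carrier of glia, at 25735, 24690, 26337 and 22872 CPM in control and 12340, 23723, 11730 and 29505 CPM with IgG. As for Vegfa, the 2 low IgG values of Apoe were those of replicates 1 and 3, and its log2 fold change was -0.48 (SE 0.26, adjusted p 0.552). Egf had the largest difference, at -0.89 (adjusted p 0.454), but it was present at only 0.772 ± 0.065 and 0.422 ± 0.16 CPM. The other 19 ligands of the list had too few counts to be tested.

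**Figure D5:**
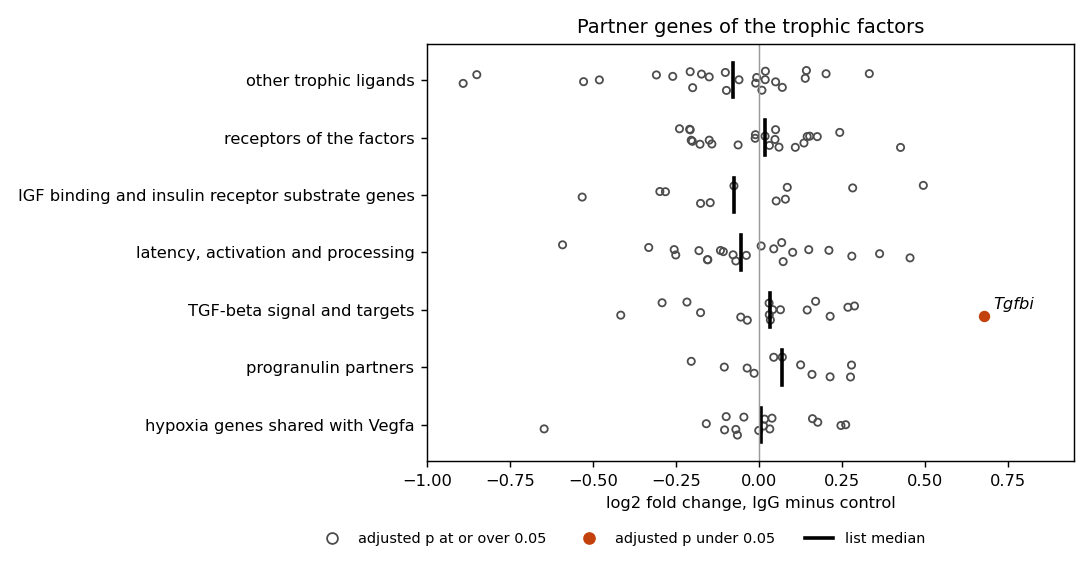
Log2 fold change, IgG minus control, of each tested gene in the 7 partner lists (1 point per gene; orange, adjusted p under 0.05 over all genes tested), with the median of each list as a black bar. Tgfbi at 0.68 is the one called gene, and the medians lie between -0.079 and 0.070.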

How the data were processed

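RNA of 4 control and 4 IgG-treated cultures was sequenced as poly(A) RNA libraries. According to the paper's methods and the submitters' processing notes, reads were cleaned and aligned to mm10 with HISAT2 2.2.1, and featureCounts is listed. The table deposited by the authors holds raw counts for each Ensembl gene, with no normalization or filter. The annotation and the strand setting are not given in the sources used here, and reads of overlapping genes may count for each. Symbols, exon lengths and GC content came from GENCODE M21, in which 55144 of 55385 identifiers were found.

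After TMM scaling, filterByExpr kept 17537 genes for a quasi-likelihood test (edgeR 4.0.16, R 4.3.3). Replicate number was a block, because the labels give same-numbered libraries 1 date. Their deviations from the group means correlated over 11928 genes at 0.47, 0.43, 0.28 and 0.33 for numbers 1 to 4, against -0.38 to 0.28 for different numbers. P-values were adjusted by Benjamini-Hochberg over all tested genes. Log2 CPM used a prior count of 2, and trends on exon length and GC were lowess curves with a span of 0.3. Libraries of a group differed by a chi-square of at least 5.00 per degree of freedom, where 1 is sampling noise. None was therefore the same library sequenced again. That value cannot tell separate cultures from separate libraries of 1 culture. The design describes the libraries as separate cultures. The procedure was tested on simulated data.

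The members and lists were chosen with earlier results of these data known. Genes were named by rule: all members, the main receptors, the 3 genes most like each member, and in each list the called genes, the most abundant and the one with the largest change (for the progranulin partners, the last is not reported here), with Igfbp4 and Mmp14 added after their values were seen. Alternatives were the fit without the block, other scalings and filters, the likelihood ratio test, DESeq2 1.42.0, limma-voom 3.58.1, removal of the length and GC trends, omission of each pair and, added after the data were seen, pairs 2 and 4 alone.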

Additional observations from a re-analysis of the deposited data

Results flagged for a closer look

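Pdgfa in IgG replicate 1 was at 22.1 CPM, apart from the other 3 IgG libraries at 27.8 to 28.8 CPM. The gap to the nearest of them was 0.852 of the range of the group, above the 95% critical value of Dixon's test for 4 samples. This was 1 flag among 18 groups of 4 libraries examined, and chance flags about 1 in 20. That library is one of the pair with the high mitochondrial share (4.85%), and with the trends on length and GC removed its pair difference went from -0.31 to -0.083. The part of either in the flag was not tested.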

How the results depend on the processing

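Members past the criterion of the study and members differing among the pairs numbered 0 under every alternative run for them. Members called numbered 1 (Grn) with no filter on low counts and 0 under the other alternatives. Genes called, 69 as reported, numbered 0 without the replicate block (1230 at an unadjusted p under 0.05), 37 with total counts alone, 376 with no filter, 327 with the likelihood ratio test, 231 with DESeq2, 223 with the trends on length and GC removed, 190 in pairs 2 and 4 alone, and 0 to 182 when each pair was left out. The calls were fewest without pair 2 (0; 1615 at an unadjusted p under 0.05) and numbered 14 without pair 1, 16 without pair 3 and 182 without pair 4. Partner genes called, 1 as reported, numbered 0 without the block and with total counts alone, 2 with no filter, with DESeq2 and in pairs 2 and 4 alone, 3 with the likelihood ratio test and with the trends removed, and 0 to 1 when each pair was left out. Pairing changed no member's call.

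The log2 fold change of Hgf, near 0 as reported, turned to 0.049 without the replicate block and 0.0061 with limma-voom, and ranged from -0.15 to 0.23 when each pair was left out; it was -0.37 in pairs 2 and 4 alone. That of Gas6 turned to -0.056 with total counts alone, a scaling that moved the median of all tested genes from -0.0051 to -0.11, and ranged from -0.012 to 0.069 when each pair was left out. That of Igf1 turned to -0.15 in pairs 2 and 4 alone. The cause of the turns of Hgf and Igf1, and of Gas6 when pair 4 was left out, was not tested. Pairs 2 and 4 alone leave few residual degrees of freedom. Bdnf, with 20 counts in all, was too shallow to be tested.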
